A study of Homo sapiens with 4 samples.

Results

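The genes followed here are the zinc finger genes that carry a number after the letters ZNF. On a human oligonucleotide array, 250 spots for 222 genes had a platform symbol made of ZNF, digits and at most 1 further letter. Of these spots, 140 for 131 genes had at least 1 channel above background on all 4 arrays and are the members described below. The threshold for a channel was its local background plus 2 standard deviations (SD) of that background. Brightness chose the members, so their signal level is described without a test. The ratio between the channels was not a criterion, but 1 bright channel was enough on each array. All 8 channels were above background for 105 members, 7 for 27 and 6 for 8, so a spot with a large ratio could pass through its brighter channel alone. Of all 29640 non-control spots, 18868 met the same background rule. Each spot is a probe of its own.

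RNA came from DLD-1 and HT-29, both established human colorectal cancer cell lines. Treated cells of each line were grown for 24 h and then kept for 96 h in 1 µM 5-aza-2'-deoxycytidine, a cytidine analogue that traps DNA methyltransferases on DNA, so that methylation is lost as cells divide. The comparison group in each line was untreated cells. For each line, both RNAs were hybridised together on 2 arrays that differ in which RNA carried which dye, making 4 arrays in all. Separate cultures are not mentioned in the labels, so both arrays of a line counted as 1 replicate. The p-values rest on the spread between the 2 line means, which limma pooled over all probes into a single value, not on each gene's own spread. Each group is 1 cell line at 1 dose and 1 time.

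Most numbered ZNF genes encode C2H2 zinc finger proteins, in which a string of fingers, each holding a zinc ion, reads DNA bases. Many also carry a KRAB domain, which recruits the corepressor TRIM28 and through it the histone methyltransferase SETDB1 and heterochromatin proteins, and silences transposable elements and genes. Many KRAB zinc finger genes lie in clusters on chromosome 19, and promoter methylation of several family members has been described in tumours. The set is defined by name, so it also holds proteins of other kinds, such as ZNF185, a LIM domain protein of the actin cytoskeleton, and ZNF598, a ubiquitin ligase that senses collided ribosomes.

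Every ratio below is log2 of file channel 2 over file channel 1 after normexp background correction and loess normalisation. On array 1 of each line the labels give treated RNA to channel 2. On the dye-exchanged array 2 the sources do not settle which file channel holds the treated RNA. Channel 2 was read as treated on all 4 arrays, and the reading in which the labels' channel order holds on array 2, so that every sign on it turns, is given beside the counts. With channel 2 as treated, the ratios of the 140 members on DLD-1 arrays 1 and 2 had r = -0.51, against -0.45 over all 18868 probes, which share those hybridisations. The HT-29 arrays gave -0.13 for members and 0.00 for all probes. Array 1 of DLD-1 against array 1 of HT-29 gave 0.51 for both sets, while array 2 against array 2 gave -0.13 for members and -0.20 for all probes (0.19 for both with block medians at 0). Position in the 48 printed blocks accounted for between 23.2% and 49.7% of the variance of the ratios on an array, so several results are also given with each block's median set to 0. The DLD-1 arrays then had r = -0.21 for members, the HT-29 arrays -0.23, and array 1 of both lines 0.31. Above background on all 4 arrays were 8 of 10 markers of colorectal epithelium, including EPCAM, CDH1 and CDX2, with 0 called and a median ratio of 0.29. So were 5 of 8 markers of leukocytes, fibroblasts and endothelium (CD3E, CD14, COL1A1, COL1A2 and DCN), with 0 called and a median of 0.03. Passing the background rule is therefore not proof that a gene is expressed.

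Promoters are shown because loss of methylation acts at CpG sites, and because the 4 genes chosen hold between 3 and 30 of them. RefSeq promoter windows of 300 bases (250 before the gene start and 50 after it, assembly GRCh38.p14) matched 112 of the 131 genes. The sequences read 5′ to 3′ on the gene's strand, with each CpG in capitals. ZNF219 had the largest mean ratio in size, ZNF468 was the one member at or above 0.5 on both DLD-1 arrays, ZNF574 gave values close together on the 4 arrays with channel 2 read as treated, and ZNF331 belongs to the list of genes reported as methylated in tumours.
ZNF219: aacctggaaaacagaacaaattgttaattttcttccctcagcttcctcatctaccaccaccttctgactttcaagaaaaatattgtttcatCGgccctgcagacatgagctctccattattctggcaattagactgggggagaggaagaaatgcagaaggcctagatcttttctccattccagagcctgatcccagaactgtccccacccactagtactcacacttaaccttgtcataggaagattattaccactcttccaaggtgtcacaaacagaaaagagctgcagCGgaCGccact
ZNF468: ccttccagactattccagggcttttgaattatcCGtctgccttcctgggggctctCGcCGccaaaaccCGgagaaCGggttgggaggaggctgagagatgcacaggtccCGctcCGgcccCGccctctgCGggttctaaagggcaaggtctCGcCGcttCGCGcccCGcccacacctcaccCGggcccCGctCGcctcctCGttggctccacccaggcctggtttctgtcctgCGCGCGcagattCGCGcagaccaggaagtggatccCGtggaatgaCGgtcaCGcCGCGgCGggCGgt
ZNF574: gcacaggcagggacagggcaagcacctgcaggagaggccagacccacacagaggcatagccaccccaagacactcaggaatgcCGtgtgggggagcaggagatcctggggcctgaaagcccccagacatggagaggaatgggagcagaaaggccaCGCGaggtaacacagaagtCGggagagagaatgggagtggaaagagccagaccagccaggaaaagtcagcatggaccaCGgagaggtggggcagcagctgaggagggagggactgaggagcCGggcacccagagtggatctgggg
ZNF331: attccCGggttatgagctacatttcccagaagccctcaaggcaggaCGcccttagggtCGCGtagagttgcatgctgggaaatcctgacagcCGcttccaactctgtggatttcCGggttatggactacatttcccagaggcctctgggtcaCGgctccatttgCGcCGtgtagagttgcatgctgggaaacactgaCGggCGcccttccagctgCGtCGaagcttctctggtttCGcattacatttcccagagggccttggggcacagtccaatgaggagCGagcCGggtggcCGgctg
The ZNF219 window, chr14:21104673-21104972 on the minus strand, holds 3 CpG sites, and 81.0% of all promoters in the table hold as many or more. The ZNF468 window, chr19:52857570-52857869 on the minus strand, holds 30, and 22.1% of promoters hold as many or more. The ZNF574 window, chr19:42068227-42068526 on the plus strand, holds 6. The ZNF331 window, chr19:53520764-53521063 on the plus strand, holds 17. Methylation itself was not measured on these arrays.

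CpG-rich promoters were the rule among the members. The median member window held 22 CpG sites, with a range of 3 to 55, against a median of 14 over 27305 promoters, 1 per gene. At least 10 CpG sites stood in 106 of 112 windows (94.6%), against 56.0% of all promoters. Median GC content was 62.3% against 58.3%, and the median ratio of observed to expected CpG was 0.80 against 0.58. Of the 112 genes, 45 (40.2%) lay on chromosome 19, against 5.53% of all promoters in the table. These comparisons are with all promoters, not with those of other genes that met the background rule. The part of that rule in the differences was not tested.

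Of the 250 ZNF spots, 56.0% were above background on all 4 arrays, against 63.7% of all non-control spots. A further 50 were above it on 3 arrays, 25 on 2, 14 on 1 and 21 on none. By array, 177 and 204 spots passed in DLD-1 and 201 and 192 in HT-29. Among the members, 105 were above background in all 8 channels, 27 in 7 and 8 in 6. The members nearest the limit, by the lowest number of background SD on any array, were ZNF394 at 2.01, ZNF185 at 2.14 and ZNF263 at 2.15. Just outside it were ZNF695 at 1.98, ZNF264 at 1.91 and a second probe of ZNF407 at 1.90.

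No change in a numbered ZNF gene was called over both lines. Limma's test of the 2 line means against 0 (two-sided, Benjamini-Hochberg adjusted p under 0.05 over 18868 probes) called 0 of 140 members higher and 0 lower. Of all probes, 0.143% were called higher and 0.0318% lower. At an unadjusted p under 0.05, 2 of 140 members passed (1.43%), against 4.82% of all probes. The member median was 0.00 with an SD of 0.21, and the median over all probes was 0.01 with an SD of 0.23. In the labels' channel order 1 member was called higher and 0 lower, against 0.668% and 0.0477% of all probes, and 14 members (10.0%) had an unadjusted p under 0.05, against 10.9%. With block medians at 0 no member was called higher or lower, against 0.0212% and 0% of all probes, and 9 members had an unadjusted p under 0.05 (6.43%), against 5.37%.

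The test had limited reach. The smallest mean ratio that it called in any probe was 0.88 in size, a 1.84-fold change, and the largest among the members was 0.74. Each member's mean had a standard error of 0.221, a single value that limma shared over all probes, however far apart a gene's own arrays lay. The 95% interval thus reached 0.43 to each side. With channel 2 as treated, 138 members lay within 0.5 of 0, and for 138 the interval stayed inside a 2-fold change in both directions. Intervals of the other 2, ZNF219 and a probe of ZNF839, reached 2-fold. In the labels' channel order the standard error was 0.245 and the mean of ZNF253 was 1.16, beyond 2-fold. Intervals are not given for that order, so the count of 138 holds for the first reading only.

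**Figure D1:**
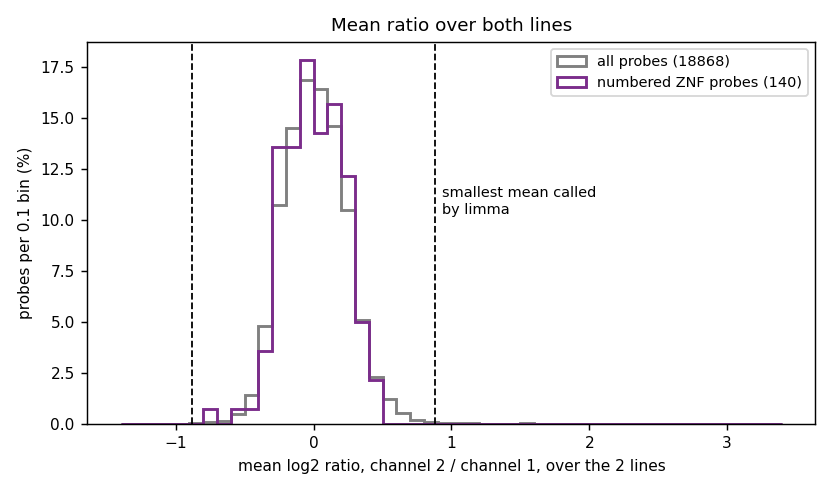
Share of probes (%) per 0.1 bin of the mean log2 ratio of channel 2 over channel 1 over both lines, for 18868 probes (grey) and the 140 numbered ZNF probes (purple). The ZNF probes follow the grey outline and all lie between the dashed lines at 0.88 to each side, the smallest mean that limma called.

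ZNF219, a C2H2 transcription factor known as a partner of SOX9, had the largest mean in size. Its ratios were -0.60 and -0.91 on the DLD-1 arrays and -0.09 and -1.37 on the HT-29 arrays. All 4 values were below 0, but those of HT-29 lay far apart. The line means were -0.76 ± 0.22 in DLD-1 and -0.73 ± 0.90 in HT-29 (SD, n = 2 arrays each), and the mean over both was -0.74 with a 95% interval from -1.18 to -0.31 and a limma adjusted p of 0.206. Net of local background, channel 1 read 567 and channel 2 read 509 on DLD-1 array 1, and 611 and 156 on array 2. On the HT-29 arrays it was 602 and 671, then 2418 and 936. In HT-29 channel 2 was above background on 1 of 2 arrays. In the labels' channel order the mean turned to 0.40, and over all alternatives the adjusted p ran from 0.0625 to 1.00.

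ZNF839, which has 2 probes, had the next largest mean at 1 of them. That probe gave -1.10 and 0.16 in DLD-1 and -1.11 and -0.30 in HT-29, a mean of -0.59 with a limma adjusted p of 0.593. The low values on array 1 were alike in both lines, and array 2 did not repeat them. The other ZNF839 probe had a mean of -0.24.

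Without DLD-1 array 2, limma called 2 members higher and 2 lower (1.43% each), against 3.33% and 1.24% of all probes. ZNF839 was lower at -0.90 (adjusted p 0.00751) and ZNF343 lower at -0.72 (adjusted p 0.0454). ZNF84 was higher at 0.79 (adjusted p 0.0242) and ZNF496 higher at 0.81 (adjusted p 0.0197). On the array left out, ZNF84 stood at -0.84 and ZNF496 at -1.22, each opposite in sign to its ratios of 0.70 and 1.59, and 0.82 and 1.28, on the array 1 hybridisations. ZNF343 stood at 0.25 there, against -1.02 and -0.65. These 4 calls thus rested on which DLD-1 array was used.

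All 4 arrays gave 1 sign for 10 members, 7 positive (5.00%) and 3 negative (2.14%), against 4.53% and 3.31% of all probes. ZNF574 and ZNF629, both C2H2 genes without a KRAB domain, gave values close together in this reading. ZNF574 had 0.41 and 0.27 in DLD-1 and 0.36 and 0.40 in HT-29. ZNF629 had 0.44 and 0.27, then 0.38 and 0.34. Both means were 0.36, and both had a limma adjusted p of 0.963. In the labels' channel order the signs alternate between the arrays of a line, and the means were 0.02 and 0.05. With block medians at 0, the mean of ZNF574 was 0.14, with values from -0.18 to 0.68, and that of ZNF629 was 0.22.

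The other positive members varied more. ZNF672 gave 0.54 and 0.14 in DLD-1 and 0.90 and 0.05 in HT-29, so that array 1 was the higher one in each line. ZNF212 gave 0.28 and 0.11, then 0.56 and 0.49, with the HT-29 arrays above both DLD-1 arrays. Its mean of 0.36 was 0.22 with block medians at 0, 0.06 in the labels' channel order and 1.03 with the authors' background subtraction, and on 1 of the 2 HT-29 arrays its channel 1 did not pass background. ZNF446, a KRAB gene that also has a SCAN domain, gave 0.15 and 0.05, then 0.47 and 0.45, in the same order. ZNF844, a KRAB gene, owed its mean of 0.32 to 1 array, with 0.95 against 0.08, 0.14 and 0.13. ZNF576 had the smallest mean, 0.12, and -0.02 with block medians at 0.

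Besides ZNF219, the negative members were ZNF138 and ZNF490, both KRAB genes. ZNF138 gave -0.52 and -0.10 in DLD-1 and -0.48 and -0.29 in HT-29, a mean of -0.35, or -0.49 with block medians at 0. ZNF490 stood at -0.01 on array 1 of both lines and at -0.27 and -0.40 on the dye-exchanged arrays, and its mean of -0.17 turned to 0.16 in the labels' channel order. The lines ran opposite ways on all arrays at 5 members with HT-29 positive, against 4.66% of all probes, and at 0 with DLD-1 positive, against 2.75%. In the labels' channel order these counts were 10 and 10, against 6.75% and 5.2%, and with block medians at 0 they were 8 and 6, against 5.78% and 3.1%. None of the 10 members of 1 sign passed limma, with adjusted p from 0.206 to 0.971.

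**Figure D2:**
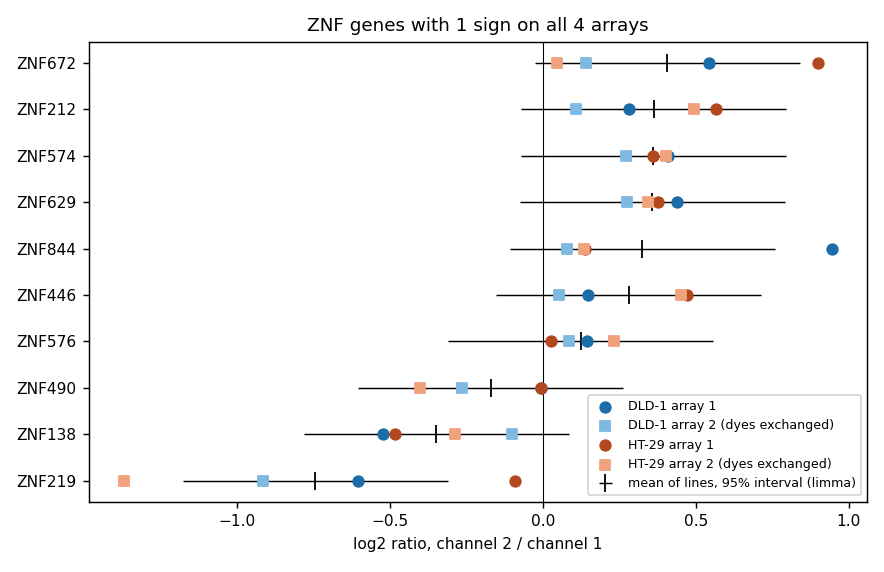
Log2 ratio of channel 2 over channel 1 on each of the 4 arrays for the 10 members with 1 sign on all of them; black ticks and bars are the mean of both lines and its 95% interval from limma. ZNF574 and ZNF629 have their points close together between 0.27 and 0.44, while the HT-29 points of ZNF219 lie at -0.09 and -1.37.

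Members were next read within each line, where there is no test because the arrays share RNA. In DLD-1, 0 members reached a log2 ratio of 1 (2-fold) on both arrays in either direction, against 0.0848% of all probes higher and 0% lower. At 0.5 on both arrays, 1 was higher and 1 lower, against 0.615% and 0.185%. The higher one was ZNF468, a KRAB gene, at 0.75 and 0.64 (0.69 ± 0.08, SD, n = 2 arrays), and the lower one was ZNF219. ZNF468 did not show the same in HT-29, with -0.18 and 0.32. Its channel 1 was above background on 1 of 2 arrays in each line, and with block medians at 0 its DLD-1 ratios were 1.01 and 0.66, when it was the 1 member at 0.5 upward in DLD-1 (against 0.551% of all probes) and 0 were downward (against 0.17%). Its mean over both lines was 0.38, with a limma adjusted p of 0.963.

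The next DLD-1 members with 1 sign on both arrays were ZNF629, ZNF574, ZNF331, ZNF207, ZNF646 and ZNF135. ZNF207, which brings the checkpoint protein BUB3 to kinetochores, gave 0.28 and 0.25 in DLD-1 and 0.44 and -0.61 in HT-29. ZNF646 gave -0.22 and -0.48, then 0.59 and -0.16. ZNF135, a KRAB gene, gave 0.98 and 0.21, then 0.07 and -0.06. Each of these 3 had ratios of both signs in HT-29. The DLD-1 arrays shared a positive sign at 16 members (11.4%) and a negative one at 18 (12.9%), against 13.8% and 17.6% of all probes.

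In HT-29, 0 members reached 1 on both arrays, against 0.127% of all probes higher and 0.0106% lower. At 0.5, 0 were higher and 3 lower, against 3.27% and 0.98%. These 3 were ZNF330, a nucleolar protein, ZNF133, a KRAB gene, and ZNF239, a C2H2 gene. ZNF330 gave -0.62 and -0.59 (-0.60 ± 0.02, SD, n = 2 arrays), and in DLD-1 -0.11 and 0.21. ZNF133 gave -0.55 and -0.70 in HT-29, against -0.34 and 0.65. ZNF239 gave -0.53 and -0.92, against -0.14 and 0.38. All 3 had ratios of both signs in DLD-1, and with block medians at 0 no member reached 0.5 on both HT-29 arrays, upward (against 0.721% of all probes) or downward (against 0.456%).

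Just short of that on the positive side in HT-29 were ZNF212, ZNF512, ZNF211 and ZNF446. ZNF512 gave 0.49 and 0.62 in HT-29 but 0.51 and -1.15 in DLD-1. ZNF211, a KRAB gene, gave 0.58 and 0.47, then 0.72 and -0.08 in DLD-1, for a mean of 0.42, or 0.21 with block medians at 0. On HT-29 array 1 its channel 1 did not pass background, and channels 1 and 2 read -77 and 66 net of local background. On the negative side, ZNF229, a KRAB gene, gave -0.67 and -0.44 in HT-29, and -0.60 and 0.15 in DLD-1. The HT-29 arrays shared a positive sign at 35 members (25%) and a negative one at 39 (27.9%), against 31% and 25% of all probes.

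**Figure D3:**
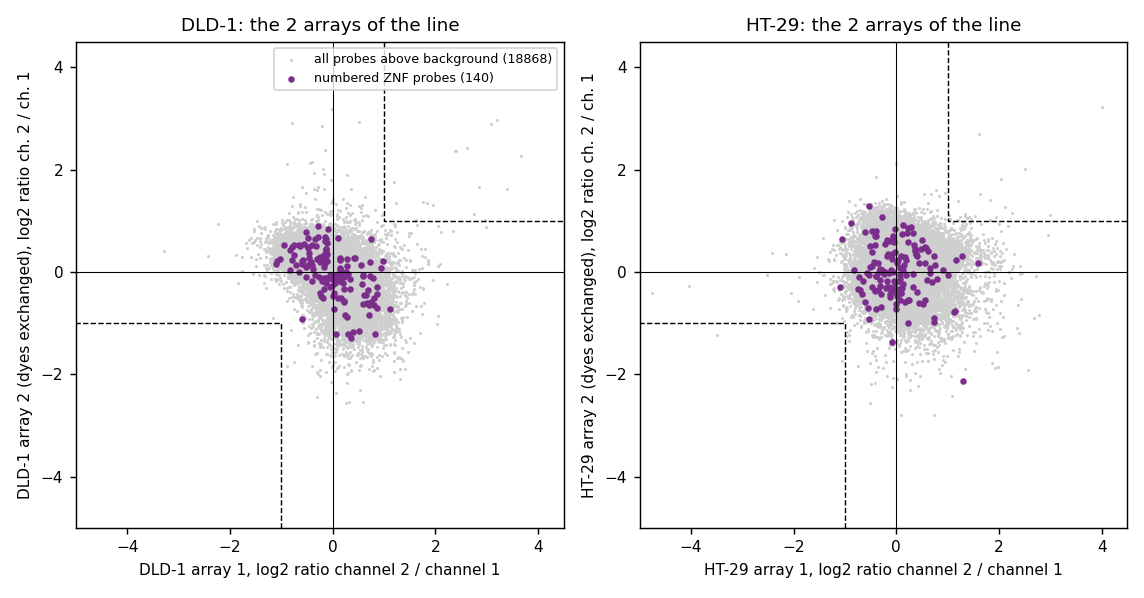
Log2 ratio of channel 2 over channel 1 on array 1 (horizontal) and dye-exchanged array 2 (vertical) of DLD-1 (left) and HT-29 (right), for 18868 probes (grey) and the 140 ZNF probes (purple); dashed corners mark a 2-fold change in 1 direction on both arrays. Neither corner holds a ZNF probe, and in DLD-1 the ZNF probes slope downward like the grey cloud (r = -0.51 and -0.45).

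The labels' channel order gave another set of members. In DLD-1, 11 members then reached 0.5 on both arrays upward and 6 downward, against 6.14% and 3.89% of all probes, so that 7.86% and 4.29% of members stood beside those shares. In HT-29, 7 were higher and 5 lower, against 3.73% and 1.61%. At 1 on both arrays, DLD-1 had 0 members, against 0.382% higher and 0% lower, and HT-29 had 1 higher, against 0.329%, and 0 lower, against 0.0053%. All 4 arrays then shared a positive sign at 11 members (7.86%) and a negative one at 16 (11.4%), against 8.65% and 7.28%. ZNF253, a KRAB gene, was the 1 member called by limma in that order. Its ratios there were 0.58 and 0.62 in DLD-1 and 1.30 and 2.13 in HT-29, with a mean of 1.16 and an adjusted p of 0.00179. With channel 2 as treated throughout, the array 2 values became -0.62 and -2.13, the mean was -0.22 and the adjusted p 0.963. Net of local background, channels 1 and 2 read 294 and 868, 596 and 226, 0 and 396, and 4688 and 1105 on the 4 arrays in turn. ZNF253 was also 1 of 2 members, with ZNF845, whose treated channel was above background on both HT-29 arrays and whose untreated channel was on neither in that order, whatever the ratio, against 1.13% of all probes. Of ZNF845 the HT-29 ratios there were 0.65 and 0.02. In DLD-1 the same held for ZNF185, with ratios of 1.12 and 0.72, against 1.00% of all probes. With channel 2 as treated it held for 0 members in either line, against 0.0689% (DLD-1) and 0.270% (HT-29) of all probes. Spots of this kind met the background rule on those arrays through 1 channel alone.

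In the labels' order 10 members stood at 0.5 or more on at least 3 arrays (7.14%), against 4.89% of all probes, and 2 at or below -0.5 (1.43%), against 1.58%. The 10 were ZNF253, ZNF706, ZNF71, ZNF524, ZNF638, ZNF692, ZNF84, ZNF496, ZNF33A and ZNF358, and ZNF253 alone was called. ZNF706, which like ZNF253 passed 0.5 on all 4 arrays, gave 0.81 and 0.51, then 0.73 and 0.98, a mean of 0.76 with a limma adjusted p of 0.132. Its array 1 values, 0.81 and 0.73, are the same under both readings.

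KRAB genes were compared with the rest of the members by background knowledge of their domains. Of 73 KRAB probes for 66 genes, 0 were called, and their median was -0.03 (range -0.41 to 0.42). Of 67 other probes for 65 genes, 0 were called, and their median was 0.01 (range -0.74 to 0.41). In DLD-1 the KRAB median was 0.00 and in HT-29 -0.09, those of the others were -0.02 and 0.09, while all probes stood at -0.05 and 0.05. With block medians at 0 the KRAB and other medians were 0.01 and 0.02. C2H2 genes with other family names (ZBTB, ZSCAN, ZKSCAN, ZFP, ZIC and KLF) had 42 probes for 38 genes tested, 0 called and a median of -0.02.

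Of the list of zinc finger genes reported as methylated in tumours, 6 were on the array and 3 were above background on all arrays, with 0 called and a median of -0.20. ZNF132, ZNF471 and ZNF671 were the 3 not tested, and ZNF671 was above background on 0 arrays. ZNF331, a KRAB gene in an imprinted region, gave -0.26 and -0.41 in DLD-1 and -0.44 and 0.19 in HT-29. ZNF304, a KRAB gene described as a silencer in colorectal cancer cells, gave -0.57 and 0.23, then -0.32 and -0.16. ZNF177, also a KRAB gene, gave -0.16 and 0.26, then -0.32 and 0.06. Array 1 was below 0 in both lines for all 3 genes, and array 2 held values of both signs. The median of the 3 was -0.10 with block medians at 0, -0.0037 when DLD-1 array 1 was left out and -0.069 when HT-29 array 1 was.

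The corepressors of KRAB proteins were followed through a list of 18 genes, of which 17 were on the array and 15, with 16 probes, were tested. None was called, and their median was -0.05 (range -0.27 to 0.29). TRIM28, the scaffold that KRAB domains bind, gave 0.70 and -0.67 in DLD-1 and 0.18 and -0.33 in HT-29. With channel 2 as treated these were opposite in sign between the arrays of each line. SETDB1, its histone methyltransferase, gave -0.13 and -0.27, then 0.24 and 0.25, a mean of 0.02. DNMT1, the maintenance DNA methyltransferase that the drug traps, gave 0.03 and -0.40, then -0.38 and -0.31, a mean of -0.27. ATF7IP, a partner of SETDB1, had 1 probe at 0.59 and -0.58, then 1.71 and -0.57, and another with a mean of -0.15. CHD3, a remodeller that TRIM28 recruits, gave -0.41 and 0.13, then -0.22 and -0.58. UHRF1 was above background on 0 arrays. In the labels' channel order 0 probes of the list were called, and their median was 0.05 (range -0.55 to 0.86). TRIM28 and the first ATF7IP probe were then positive on all arrays, with means of 0.47 and 0.86. MORC2 and CBX5 were negative on all arrays in that order, with means of -0.55 and -0.32. SETDB1 had 0.04, DNMT1 0.09 and CHD3 -0.04.

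Promoter CpG count was set beside the mean ratio over the 121 member probes with a promoter window. The correlation was r = 0.14, or 0.12 with block medians at 0, given as a description since the probes share the same 4 hybridisations. The 84 probes with at least 20 CpG sites had a median mean ratio of -0.01, and the 37 with fewer had 0.03. The 47 probes of chromosome 19 had a median of 0.03 and the 74 on other chromosomes -0.04. ZNF219, with the lowest mean, held 3 CpG sites, and ZNF672, with the highest mean among these probes, held 26.

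**Figure D4:**
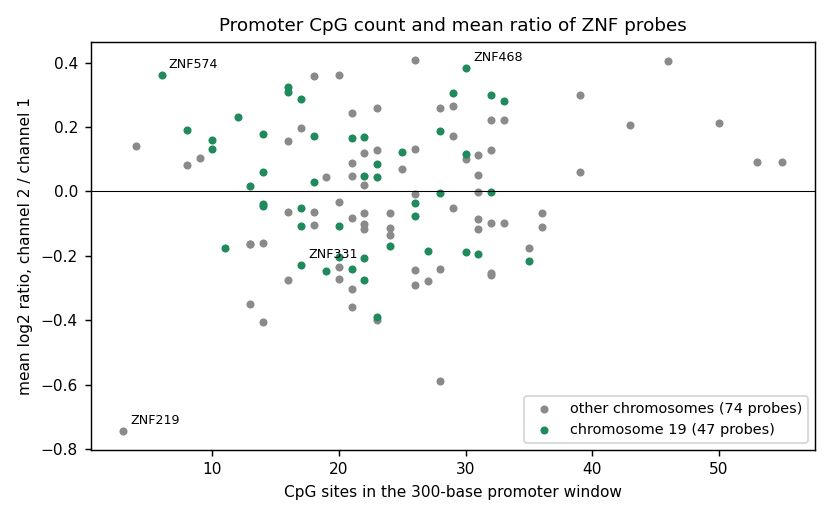
CpG sites in the 300-base promoter window (horizontal) and mean log2 ratio of channel 2 over channel 1 (vertical) of 121 ZNF probes, with the 47 of chromosome 19 in green. The 84 probes with at least 20 CpG sites have a median ratio of -0.01 and the 37 with fewer 0.03 (r = 0.14 over all).

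Average spot signal, the mean log2 of both channels with quantile normalisation between arrays, does not depend on which channel held treated RNA. It was compared between the lines without a test, since each line was 1 replicate, and fewer transcripts per cell and weaker hybridisation cannot be told apart in it. At 2-fold or more between line means with arrays that did not overlap, 14 members (10.0%) were higher in DLD-1 and 4 (2.86%) higher in HT-29, against 8.01% and 5.16% of all probes. Without HT-29 array 1 the counts were 32 and 19 (22.9% and 13.6%), against 22.2% and 16.7% of all probes. Without HT-29 array 2 they were 22 and 9, against 14.9% and 8.96%. Without DLD-1 array 1 they were 17 and 12, against 9.88% and 9.73%, and without DLD-1 array 2 they were 21 and 10, against 14.1% and 10.6%. With block medians at 0 the counts were 9 (DLD-1) and 4 (HT-29). These have no share of all probes beside them, so they describe the processing only. Arrays did not overlap, at any size of difference, for 29 members higher in DLD-1 and 10 higher in HT-29, against 19.3% and 12% of all probes.

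ZNF365, a gene tied to centrosomes and genome stability, was 3.34-fold higher in HT-29. Its log2 average signal was 10.61 and 8.84 on the DLD-1 arrays and 11.50 and 11.43 on the HT-29 arrays. ZNF524 was also higher in HT-29, with 9.67 and 9.77 against 11.79 and 10.90. ZNF770 followed, with 9.45 and 9.00 against 10.37 and 10.94. In all 3 the lower HT-29 array stood at least 0.82 above the higher DLD-1 array.

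ZNF845, a KRAB gene, led those higher in DLD-1, with 10.74 and 10.30 against 9.01 and 8.76. ZNF256, another KRAB gene, gave 11.59 and 12.06 against 9.99 and 10.64. Both had a gap of at least 0.95 between the lines. ZNF706 gave 11.47 and 11.18 against 10.55 and 9.30. ZNF76, a relative of the transcription factor ZNF143, gave 12.30 and 11.95 against 11.31 and 10.22. ZNF692 gave 11.28 and 11.57 against 10.58 and 9.56 at 1 of its probes. These 3 were lowest on HT-29 array 2. ZNF486, a KRAB gene, gave 12.03 and 11.67 against 9.64 and 11.49, and ZNF77, also KRAB, gave 11.34 and 11.94 against 11.19 and 9.63. For both, 1 HT-29 array lay within 0.18 of the lower DLD-1 array.

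**Figure D5:**
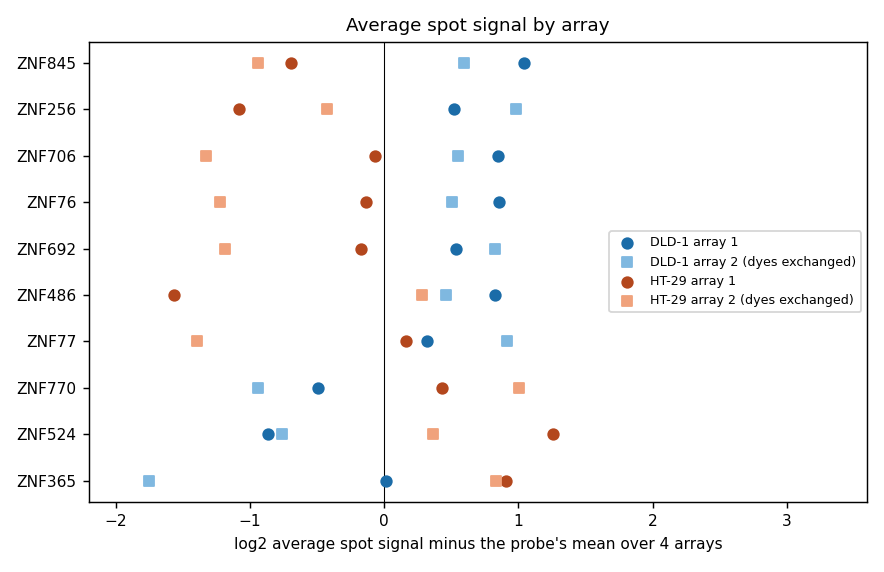
Log2 average spot signal of each array minus the probe's own mean over the 4 arrays, for the 10 members with the largest line difference whose arrays did not overlap (blue DLD-1, orange HT-29; circles array 1, squares array 2). ZNF365, ZNF524 and ZNF770 are higher in HT-29, and for ZNF486 and ZNF77 one HT-29 point lies next to the DLD-1 points.

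In average signal the member probes of chromosome 19 had the larger median difference between the lines, a comparison added after the values were seen. The median of DLD-1 minus HT-29 was 0.42 over their 47 probes, 0.00 over the 74 member probes on other chromosomes, 0.16 over 455 other probes of genes on chromosome 19, and 0.13 over all probes. Of the 47, 7 (14.9%) showed a 2-fold excess in DLD-1 without overlap and 0 in HT-29, against 8.01% and 5.16% of all probes, 8.57% and 5.05% of the other chromosome 19 probes, and 5.41% and 4.05% of members on other chromosomes. Between single arrays the median was 0.35 for array 1 of DLD-1 minus array 1 of HT-29, 0.91 against HT-29 array 2, 0 for DLD-1 array 2 minus HT-29 array 1, and 0.75 against HT-29 array 2. Over all probes these medians were 0.07, 0.20, 0.05 and 0.13. With block medians at 0 the chromosome 19 members had 0.15 and members on other chromosomes 0.05. Other chromosome 19 probes then had 0.09 and all probes 0.06, so the sets lay closer together. The difference of the chromosome 19 members was larger against HT-29 array 2 than against HT-29 array 1, and the part of position on the slide in it was not tested.

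Different probes of a gene could be compared for 8 member genes. ZNF692 had means of -0.26 and 0.22, ZNF3 of -0.29, -0.24 and 0.13, and ZNF175 of -0.21 and 0.17. In all 3 genes the probes disagreed in sign. The 2 ZNF160 members also did, at 0.12 and -0.19. A further ZNF160 probe, above background on 0 arrays and in 0 channels, had 1.44 and 1.17 in DLD-1. The smallest gap, 0.02, was at ZNF589. Probe sequences were not used here, so signal shared between closely related KRAB genes could not be told apart.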

How the data were processed

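Total RNA of DLD-1 and HT-29 cells, amplified and dye-coupled, was measured on 4 two-colour arrays (2 per line). The authors' deposited scanner files hold, per spot and channel, the intensity, local background and background SD on a linear scale. The deposited series table holds log2 ratios made by the authors, log2 of channel 2 over channel 1 with each array's median at 0, and was used as an alternative. The scanner is not given in the sources used here.

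In R 4.3.3 with limma 3.58.1, intensities were corrected with normexp (offset 50), and ratios were loess normalised within each array, with zero weight for controls and bad spots; 49 bad spots that were not controls were left out. The arrays of a line were averaged, and limma (lmFit, eBayes) compared both line means with 0 over 18868 probes with Benjamini-Hochberg adjustment. The smallest two-sided p of an exact sign-flip test on 2 means is 0.5, so calls rest on the variance limma shares between probes. Precision is limited by the number of arrays. Average signal was the mean log2 intensity of both channels, quantile normalised. The limma step was tested on simulated arrays drawn independently of each other and without block effects. The real arrays differ in both respects, so that test does not show how the calls behave here. At least 1 channel was above background at 22104 to 25825 probes per array.

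Symbols came from the platform table, in which 14296 probes had 1 symbol and 447 several; 23 probes with several that included a numbered ZNF gene were not used. The members and lists were chosen with earlier results of these data known. Named are members called by limma, the 10 largest means with 1 sign on 4 arrays, 8 per line by the smaller ratio, 10 by average signal, 3 genes whose probes differ, the methylation list and the probes nearest the background limit; any other member named was chosen after its values were seen. Alternatives changed the channel order, block centring, background, loess, spot filter, source of ratios and arrays used.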

Additional observations from a re-analysis of the deposited data

Results flagged for a closer look

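With channel 2 read as treated, 5 members had both DLD-1 ratios below 0 and both HT-29 ratios above 0 (3.57%, against 4.66% of all probes), and 0 had the reverse (against 2.75%). In the labels' channel order the counts were 10 and 10, against 6.75% and 5.2% of all probes. With block medians at 0 they were 8 and 6, against 5.78% and 3.1%. With 1 loess curve per block they were 7 and 5, with no share of all probes beside them, so these describe the processing only. The difference between the lines was not tested, and all 5 were chosen after their values were seen. ZNF112, a KRAB gene, had a line mean of -0.17 in DLD-1 (-0.05 and -0.29) and 0.52 in HT-29 (0.13 and 0.92), a difference of -0.69. ZNF516 had -0.21 and -0.18 in DLD-1 and 0.39 and 0.36 in HT-29, a difference of -0.57. Its arrays were close together within each line in this reading only. ZNF598, the ribosome collision sensor, had -0.02 and -0.13, then 0.21 and 0.76, a difference of -0.56. ZNF536 had -0.06 and -0.11, then 0.10 and 0.73, a difference of -0.51. ZNF462 had -0.12 and -0.22, then 0.18 and 0.24, a difference of -0.38. In the labels' channel order every array 2 sign turns, so the arrays of each line were opposite in sign for all 5.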

How the results depend on the processing

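Each count of members was recomputed with 1 choice changed. Apart from shares printed earlier, these counts have no share of all probes beside them, so they describe the processing only. The set of spots also changed. With no filter, ZNF spots outside the 140 members came in, and 105 members remained where both channels had to be above background. In the labels' channel order 1 member was called higher. In DLD-1, the count at 0.5 on both arrays, 1 higher and 1 lower, became 11 and 6 in the labels' order, 5 and 2 with no filter on dim spots, and 0 and 0 where both channels had to be above background or the authors' deposited ratios were used. The lower count was 0 with block medians at 0, with no loess and with 1 loess curve per block. At 1, 1 spot (ZNF160, above background on 0 arrays) was higher with no filter. In HT-29, 0 higher and 3 lower at 0.5 became 7 and 5 in the labels' order, 2 and 10 with no filter, and 2 and 1 with no loess. Higher members numbered 2 with the authors' background subtraction and 1 with their deposited ratios, and lower ones 0 with block medians at 0 and with 1 loess curve per block. At 1, 1 was higher in the labels' order. Members of 1 positive and 1 negative sign on 4 arrays, 7 and 3, became 11 and 16 in the labels' order, 12 and 12 with 1 loess curve per block, and 11 and 9 with no filter. Positive ones were 3 with deposited ratios, and negative ones 9 with block medians at 0 and 5 with the authors' background. By average signal, 9 members were higher in DLD-1 with block medians at 0, and 9 and 2 (DLD-1, HT-29) where both channels had to be above background. Means that reversed were ZNF219 (0.40), ZNF490 (0.16) and ZNF576 (-0.037) in the labels' order, and ZNF576 with block medians at 0 (-0.021) and 1 loess curve per block (-0.12). The causes were not tested.

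Leaving out 1 array gave 0 to 2 members called higher and 0 to 2 lower, and 0 to 2 calls among other C2H2 genes. The line counts then rest on 1 array and, like the shared signs, have no share of all probes beside them. In DLD-1 they ran from 18 to 26 higher and 22 to 24 lower at 0.5, and from 0 to 1 and 3 to 6 at 1. In HT-29 they ran from 23 to 27 and 18 to 21 at 0.5, and from 2 to 7 and 2 to 3 at 1. Shared signs ran from 7 to 30 positive and 7 to 33 negative. Average signal gave 17 to 32 members higher in DLD-1 and 9 to 19 in HT-29. Of the recomputed counts of members and list probes, 114 stayed within 1.5 times the count given in the report and 66 did not. Most of the 114 were counts of 0 that stayed 0, which a factor of 1.5 cannot describe. The tally is therefore no measure of how stable the other counts were. Each ratio already pairs treated with untreated RNA on 1 array, so no further pairing was added. The dye orientations, which arrays of both lines share, are averaged with equal weight within each line. A term for orientation was not fitted, since it leaves the mean unchanged and would count arrays of the same RNA as replicates. Probes near background have ratios that rest on little signal, and 105 of 140 members had all 8 channels above it.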
